A study of Mus musculus with 2 samples.

Results

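Histone deacetylases, Polycomb proteins and chromatin remodellers were examined as a group of 47 genes in cultured dental epithelial cells from Med1 knockout and control mice. The genes were chosen by symbol as regulators of chromatin with known roles in skin epithelium. Of the 47, 43 had a probe with a gene name on the array, among 16593 genes measured in all, and 34 were detected. The knockout cells came from mice with both Med1 alleles flanked by loxP sites and Cre recombinase driven by the Krt14 promoter (Med1 fl/fl, Krt14-driven Cre). The control cells came from littermates with the same loxP-flanked alleles and no Cre listed. All mice were C57/BL6 and 3 months old, and there were 3 mice for each genotype. Cervical loop epithelium of the lower incisor was dissociated, plated sparsely and grown for 7 days in medium with EGF and FGF, without passage. Krt14-Cre acts in keratin 14-expressing epithelium, so other cells in a culture would keep Med1. A single RNA sample per genotype, read here as a pool of its 3 mice, was hybridised to 1 Illumina bead array, so every value below is a single measurement and no test between genotypes was possible.

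These genes decide which parts of the genome a cell can read. Histone acetyltransferases open chromatin and deacetylases close it, while Polycomb complexes place and read repressive marks on histones. DNA methyltransferases add a lasting repressive mark to CpG sites, and remodelling complexes such as SWI/SNF use ATP to slide or evict nucleosomes. In skin epithelium, deacetylases, Polycomb subunits and DNA methylation are known for holding differentiation genes silent in progenitors. SATB1 and the SWI/SNF ATPase encoded by Smarca4 are known in mouse epidermis for arranging the epidermal differentiation locus so that it can be expressed.

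Of 25697 probes, the knockout array detected 10935 and the control array 11086. Detected means a detection p-value, the authors' comparison with negative control beads, under 0.01. Levels are log2 intensities after background correction and quantile normalization, and differences are knockout minus control. Replicate error is unknown. As a technical scale only, probes of the same gene differed from each other with a standard deviation (SD) of 0.31 in this difference. It was computed from 1830 genes with more than 1 probe detected on both arrays. Differences larger than this SD were common, at 50.9% of all genes detected on both arrays and 61.8% of the detected members. Med1 itself read 8.03 on the knockout array and 9.52 on the control array by its brightest probe, 2.81-fold lower. A dimmer Med1 probe read 6.56 against 6.84, and the sources used here do not say whether these probes fall within the deleted sequence. Both cultures expressed epithelial markers, and 9 of 9 measured were detected on both arrays. Krt14 read 15.13 in the knockout and 15.23 in the control. Mesenchymal markers were detected too, 10 of 15 measured, and 9 were at least 2-fold higher in the knockout (7 without background correction).

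Satb1 was higher on the knockout array and Smarcc1, a core SWI/SNF subunit, was lower, and no other detected member differed by 2-fold. Of the 34 detected members, 1 was at least 2-fold higher, where 8.35% of all 8217 detected genes were, and 1 was at least 2-fold lower, where 6.52% were. The remaining 32, or 94.1%, lay within 2-fold, against 85.1% of all detected genes and 90.4% of the 7272 genes detected, like these members, on both arrays. Among those 7272, 402 passed 2-fold upward and 299 downward. Without background correction the members' counts were the same, while 340 of all 8217 detected genes were higher and 206 lower. At 1.5-fold, 2 members were higher (Satb1 and Kdm5b), beside 14.6% of all detected genes, and 4 were lower (Smarcc1, Cbx2, Dnmt3b and Ezh2), beside 16.4%. With 1 member past 2-fold in each direction, no difference from the array as a whole is read from these shares.

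More members had a difference below 0 than above 0, and so did more of all detected genes. The difference was below 0 for 23 of the 34 (67.6%), against 55.7% of all detected genes. The median was -0.21 for the members, with the middle 50% between -0.45 and 0.08, and -0.06 for all detected genes. Among the genes detected on both arrays the median was also -0.06. With median scaling in place of quantile normalization 23 members were again below 0, and with no normalization between arrays 24, Sirt2 being added. Background correction cannot change a sign here, because quantile normalization keeps the order of the probes. Whether the shift exceeds replicate error was not tested, and no difference from the array as a whole is read from it.

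**Figure D1:**
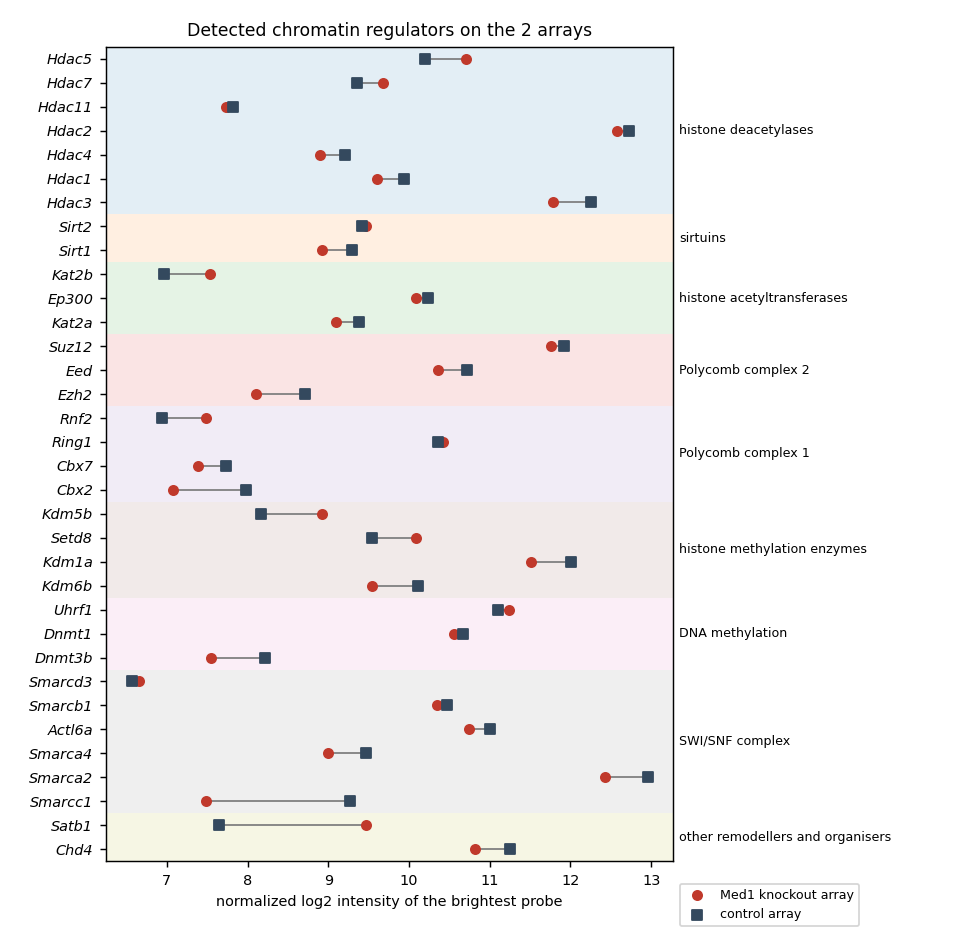
Normalized log2 intensity (horizontal axis) of the brightest probe of each of the 34 detected members, grouped by role; circles are the Med1 knockout array and squares the control array, 1 array each, with no error bars because there are no replicates. The longest lines are those of Satb1 (9.47 in the knockout and 7.65 in the control) and Smarcc1 (7.49 and 9.27); positions of different genes are not comparable, because each probe has its own brightness.

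Satb1 encodes a DNA-binding protein that anchors chromatin loops, and in mouse epidermis it acts downstream of p63. Its only probe read a raw signal of 848 on the knockout array and 367 on the control array, and it was detected on both. After normalization this was 9.47 against 7.65, a difference of 1.82 or 3.53-fold. Without background correction it was 2.41-fold, and over all scalings the log2 difference ranged from 1.26 to 1.82. It was the only member at least 2-fold higher.

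Smarcc1 encodes BAF155, a scaffold that holds the SWI/SNF complex together. Its brightest probe had a raw signal of 332 on the knockout array and 790 on the control array, or 7.49 against 9.27 after normalization. The difference was -1.78, 3.44-fold lower in the knockout, and 2.30-fold lower without background correction. A second probe was detected on the control array only, at 6.43, and its reading in the knockout was 5.43. Its fold was at least 1.04 lower, a lower bound that sets the dim side at the lowest value of any detected probe, so this probe gives the same direction but no size. All such bounds are on the background-corrected scale, which widens differences of dim probes, and the fold without that correction is given where it is smaller than the bound.

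The promoters of the 2 members past 2-fold are shown because these genes carry the clearest differences. They are the 250 bases before the most upstream annotated start, from RefSeq on GRCm38.p6, at chr17:51833291-51833540 on the minus strand for Satb1 and chr9:110131774-110132023 on the plus strand for Smarcc1. Satb1 has 5 annotated starts in that table and Smarcc1 has 1, and the array does not tell which Satb1 start was in use. Capitals mark the GC box.
Satb1: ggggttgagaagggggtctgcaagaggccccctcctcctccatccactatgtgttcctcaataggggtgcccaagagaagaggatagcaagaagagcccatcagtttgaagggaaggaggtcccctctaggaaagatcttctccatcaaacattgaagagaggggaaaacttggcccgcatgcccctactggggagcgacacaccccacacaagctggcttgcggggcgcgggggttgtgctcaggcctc
Smarcc1: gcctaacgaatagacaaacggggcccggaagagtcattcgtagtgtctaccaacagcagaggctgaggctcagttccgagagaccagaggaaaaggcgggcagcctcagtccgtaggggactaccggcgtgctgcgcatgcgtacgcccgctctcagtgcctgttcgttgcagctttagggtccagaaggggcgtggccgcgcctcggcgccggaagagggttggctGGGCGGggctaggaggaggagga

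The promoters differ in base composition. The Smarcc1 sequence holds 21 CpG sites and 63.6% G and C, and the Satb1 sequence 5 CpG sites and 58.0%. The median over 27025 genes is 6 CpG sites, and 16.1% of promoters hold as many as Smarcc1 while 55.5% hold as many as Satb1. Both strands were searched for 5 short motifs with these letters: the GC box GGGCGG, the E-box CACGTG, the AP-1 motif TGANTCA, the nuclear receptor motif AGGTCA and the TATA box TATAAA. Smarcc1 has 1 GC box, which 33.0% of all promoters have, and Satb1 has none. Neither window holds an E-box (6.0% of promoters do), an AP-1 motif (6.9%), a nuclear receptor motif (13.8%) or a TATA box (13.0%). No motif overlaps another in these windows, and a match or its absence is a description of these letters only.

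Of 9 histone deacetylases, 7 were detected, and 5 of the 7 read lower in the knockout, all by less than 2-fold. Of all detected genes, 55.7% read lower. Hdac1, Hdac2 and Hdac3, the catalytic subunits of the nuclear corepressor complexes, had negative differences. Hdac3, the deacetylase of the NCoR complexes, read 11.78 in the knockout and 12.25 in the control (-0.47). Hdac1 read 9.60 against 9.94 (-0.33), and Hdac2 read 12.58 against 12.72 (-0.14). Only that of Hdac2 was inside the between-probe SD.

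The class IIa deacetylases, which shuttle between nucleus and cytoplasm, did not share a direction. Hdac5 read higher in the knockout on each of its 3 detected probes. They were at 10.70 against 10.19, at 9.61 against 9.09, and, detected on the knockout array only, at 6.56 against 5.76. The differences of the pair seen on both arrays were 0.51 and 0.52, so these probes gave nearly the same size. Hdac7 differed by 0.32 and Hdac4 by -0.30, both close to 1 between-probe SD. Hdac11, the class IV enzyme, differed by -0.09.

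Among the NAD-dependent sirtuins, Sirt1 read 8.92 in the knockout and 9.30 in the control (-0.38). Sirt2, mostly a cytoplasmic tubulin deacetylase, read 9.47 against 9.42 (0.05). Of the acetyltransferases, Kat2b, also known as PCAF, read 7.53 against 6.97 (0.57) on its brightest probe. That probe was dim, with raw signals of 337 and 284, and gave 1.21-fold without background correction. A second Kat2b probe read 7.23 against 6.94, a difference of 0.29 in the same direction. Its paralogue Kat2a, also known as GCN5, read 9.09 against 9.37 (-0.28), and Ep300, the coactivator p300, read 10.09 against 10.24 (-0.15). The paralogues Kat2a and Kat2b thus had differences of opposite sign, each under 2-fold.

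All 3 detected genes of Polycomb repressive complex 2 read lower in the knockout, where 55.7% of all detected genes did. Ezh2, its catalytic methyltransferase, had a raw signal of 424 in the knockout and 589 in the control, and read 8.10 against 8.71. Its difference was -0.61, or 1.53-fold, and 1.33-fold without background correction. The other Ezh2 probes were not detected on either array. Eed, which binds the mark the complex makes, read 10.36 against 10.72 (-0.36). Suz12, which holds the complex together, read 11.76 against 11.93 (-0.16). The median of the 3 was -0.36. Ezh2 is known to follow cell division in many tissues. Of 18 detected proliferation genes, 1 was at least 2-fold higher (Pcna, 8.62 in the knockout against 7.50 in the control) and none lower, and their median was -0.03. Without background correction Pcna was 1.63-fold higher, and Mcm6, at 0.18 by its brightest probe, was at 1.69 as the mean of its detected probes. Next came Mcm7 (-0.69), Plk1 (-0.66) and Tyms (-0.59), and the summed raw signal of the list was 22324 in the knockout and 24519 in the control. Their part in the values of Ezh2 was not tested.

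Polycomb repressive complex 1, which ubiquitinates histone H2A and compacts chromatin, was mixed. Cbx2, a subunit that reads the Polycomb mark, read 7.08 in the knockout and 7.98 in the control. Its difference of -0.91, or 1.87-fold, was the second most negative among the members after Smarcc1. It was a dim probe, with raw signals of 290 and 420, and the fold was 1.40 without background correction. Cbx7 read 7.39 against 7.73 (-0.34). Rnf2, also known as RING1B and the main ubiquitin ligase of the complex, went the other way at 7.48 against 6.94 (0.55). This probe was also dim, at raw signals of 331 and 282, and Rnf2 was 1.20-fold higher without background correction. Its paralogue Ring1 read 10.42 against 10.36 (0.06).

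The enzymes of histone methylation split evenly, and each of the 4 lay beyond the between-probe SD. So did 50.9% of all genes detected on both arrays. Kdm5b, which removes the active promoter mark from histone H3, read 8.92 in the knockout and 8.17 in the control. Its difference of 0.75, or 1.68-fold, was the second most positive after Satb1. Setd8, listed on the array under its newer name Kmt5a, methylates histone H4 and is needed by epidermal progenitors in mice. Its 3 detected probes differed by 0.55, 0.56 and 0.65, so all gave nearly the same size. Kdm6b, also known as JMJD3, which removes the Polycomb mark, read 9.54 against 10.11 (-0.56), and its second probe read 8.26 against 8.67 (-0.41). Kdm1a, also known as LSD1, had a raw signal of 3035 against 4246, a difference of -0.50.

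In the DNA methylation group, the maintenance pair barely differed and the de novo enzyme Dnmt3b was lower. Dnmt1, which copies methylation after replication, read 10.56 in the knockout and 10.67 in the control (-0.11). Uhrf1, which brings Dnmt1 to newly copied DNA, read 11.24 against 11.11 (0.14). Both differences are inside the between-probe SD. Dnmt3b read 7.54 against 8.22, a difference of -0.68, and it was 1.32-fold lower without background correction. A second Dnmt3b probe, annotated to another transcript, was not detected. The relative of Uhrf1, Uhrf2, is not a member but passed 2-fold: it read 11.50 against 12.77 (-1.28, 2.42-fold lower), and the mean over its 4 detected probes was -1.18.

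Of 9 SWI/SNF genes, 8 had a named probe, 6 were detected and 5 of the 6 read lower in the knockout, with a median of -0.36. Of all detected genes, 55.7% read lower. Both alternative ATPases were among the 5. Smarca2, also known as BRM, read 12.43 in the knockout and 12.96 in the control (-0.53). A dim second Smarca2 probe, detected in the control only, read 5.70 against 6.95 and was at least 1.49-fold lower (1.35-fold without background correction). Smarca4, also known as BRG1, had a raw signal of 657 against 882, a difference of -0.46. Actl6a, an actin-like subunit known for keeping epidermal progenitors undifferentiated, read 10.75 against 11.01 (-0.26), and the core subunit Smarcb1 read 10.34 against 10.47 (-0.13). Smarcd3 differed by 0.09. Only Smarcc1, described above, was past 2-fold.

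Chd4, the ATPase of the NuRD complex, which pairs remodelling with the deacetylases Hdac1 and Hdac2, read 10.82 in the knockout and 11.25 in the control (-0.44). A second probe read 7.90 against 8.84 (-0.94), and another, detected in the control only, read 6.24 against 6.47 and was at least 1.07-fold lower (1.06-fold without background correction). All 3 gave the same direction, but their sizes spread over 0.71.

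Detected probes of the same member agreed in direction. Undetected probes were not counted, and those of Setd8 (-0.53) and Kat2b (-0.16) had the other sign. Of the 7 members with several detected probes (Hdac5, Kat2b, Kdm6b, Setd8, Smarca2, Smarcc1 and Chd4), all 7 had probes of 1 sign. Over all 2128 genes with several detected probes, 71.8% did. No member had detected probes more than 1 apart on the log2 scale, the widest range being the 0.79 of Smarcc1. All probes of an array read the same RNA, so this is a check of probes and not of genotype.

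**Figure D2:**
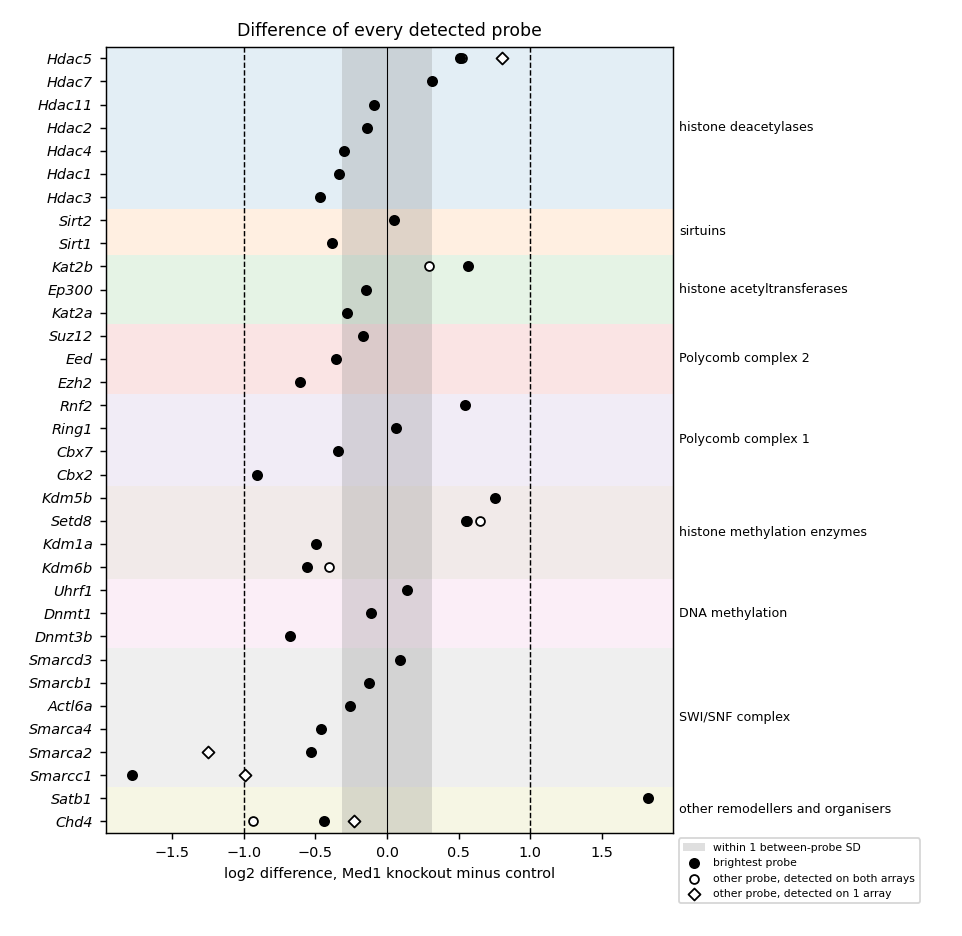
Log2 difference, Med1 knockout minus control (horizontal axis), for every detected probe of each member; filled circles are the brightest probe, open circles another probe detected on both arrays and diamonds a probe detected on 1 array. The grey band spans 1 between-probe SD (0.31) either side of 0 and dashed lines mark 2-fold; among brightest probes only Satb1 (1.82) and Smarcc1 (-1.78) lie beyond them.

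The other members gave no usable value. Of the 43 measured, 9 were not detected on either array: Hdac9, Hdac10, Sirt6, Ezh1, Jarid2, Dnmt3a, Tet3, Smarcd1 and Arid1a. Hdac10 was closest to detection, with detection p-values of 0.0902 in the knockout and 0.0113 in the control. For these genes a level below the detection limit of the array is all that can be said. Crebbp, Tet1, Tet2 and Arid1b had no named probe and were not analysed here.

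Among other chromatin genes, too, more differences lay below 0 than above. Of 188 genes in 8 further lists (corepressor subunits, acetyltransferases and readers, Polycomb, histone methyltransferases, demethylases, remodellers, DNA methylation, and cohesin with architectural proteins), 112 were detected. Their median difference was -0.17, with 78 of 112 (69.6%) below 0. The members had -0.21 and 67.6%, and all detected genes had -0.06 and 55.7%. These lists were chosen with earlier results of these data known. They were read on the same arrays as the members, so they are no independent check. Of the 112, 1 was at least 2-fold higher, where 8.35% of all detected genes were, and 2 were lower, where 6.52% were. The higher gene was Pcgf5, a subunit of variant Polycomb complex 1, at 10.11 in the knockout and 8.94 in the control (1.17). It was 1.94-fold higher without background correction, so that no gene of the 112 was then 2-fold higher. The lower ones were Uhrf2 and Kdm3a, a demethylase of repressive histone H3 methylation induced by hypoxia, at 10.25 against 11.39 (-1.14).

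Of 18 detected other remodellers, 15 were below 0, beside 55.7% of all detected genes, and their median was -0.35. The lowest was Smarcc2, the paralogue of Smarcc1, at 8.74 in the knockout and 9.41 in the control (-0.67). Next in that list were Ep400 (-0.50), Chd8 (-0.50) and Smarcad1 (-0.43), and none of the 18 passed 2-fold. Among 16 other Polycomb subunits the median was -0.13, with Mtf2, an accessory subunit of complex 2, at -0.92. Pcgf2 was at least 1.26-fold higher (1.24-fold without background correction) and Asxl2 at least 1.10-fold lower, each detected on 1 array only. Of 18 other deacetylases and corepressor subunits, with a median of -0.13, none passed 2-fold. Sirt3, a mitochondrial sirtuin, differed by -0.79, the X-linked Hdac6 by 0.76 and the X-linked Hdac8 by 0.70, and the NuRD subunit Mbd3 by -0.46. As the mean of its detected probes Hdac6 was at 0.42.

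The remaining lists had medians between -0.27 and -0.10. Among acetyltransferases and readers the largest differences were those of Tada2a (-0.88, but -1.17 as the mean of its detected probes), Kat6b (-0.83), Kat7 (0.45) and Kat8 (-0.33). Among 23 histone methyltransferases they were those of Prmt2 (-0.83), Kmt2b (-0.56), Ehmt1 (-0.52) and Ash2l (-0.50). Beyond Kdm3a, the demethylases were led by Kdm4a (-0.67), Kdm4c (-0.66) and Riox1 (0.60). The 4 detected DNA methylation genes included Zbtb33 (-0.34), Mbd1 (-0.20, but 0.31 as the mean of its detected probes) and Tdg (0.08). Among cohesin and architectural genes, Hmgn2 differed by -0.70, Nipbl by -0.42 and Ctcf by -0.40, and Rad21 was at least 1.02-fold lower.

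**Figure D3:**
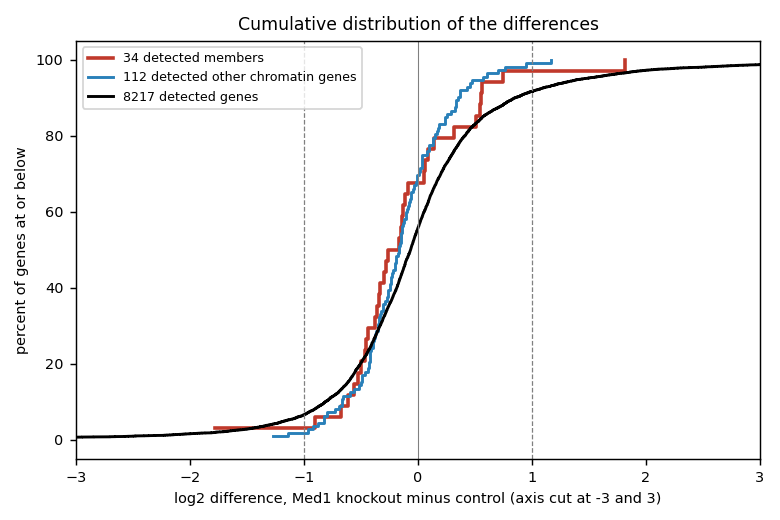
Cumulative percent of genes (vertical axis) at or below each log2 difference, Med1 knockout minus control (horizontal axis), for the 34 detected members, 112 other detected chromatin genes and all 8217 detected genes. The curves of the chromatin genes lie left of the curve of all genes around 0 (67.6% and 69.6% below 0, against 55.7%); the horizontal axis stops at -3 and 3.

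Polycomb targets and germline genes silenced by DNA methylation, which these regulators are known to hold silent, were mostly below detection on both arrays. Of all 16593 measured genes, 8217 were detected. Of 50 measured Polycomb targets, mainly Hox genes, 6 were detected and none differed by 2-fold. Cdkn2a, the cell cycle inhibitor locus best known as a Polycomb target, read 11.63 in the knockout and 11.46 in the control. Its neighbour Cdkn2b read 12.25 against 12.63, Sox2 read 7.61 against 7.39, and Hoxc10, seen in the knockout only, was at least 1.19-fold higher (1.15-fold without background correction). Of 19 germline genes silenced by DNA methylation, 3 were detected. Rhox5 was 15.6-fold lower in the knockout (10.02-fold without background correction), with raw signals of 405 against 4146, while Asz1 was at least 1.06-fold higher and Brdt at least 1.02-fold lower, each on 1 array. Of 21 measured imprinted genes, 10 were detected. At least 2-fold higher were 2 of the 10, beside 8.35% of all detected genes, and none was lower, beside 6.52%. The 2 were Cdkn1c (12.57 against 7.79) and Mest (9.65 against 7.94), followed by Igf2r (0.38) and Igf2 (0.36). Allele, methylation and histone marks were not measured.

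Other measures of the cultures moved between the same arrays. Of 15 detected genes of terminal epidermal differentiation, 14 were at least 2-fold higher in the knockout and none lower, with a median of 3.57, led by Krt4 (at least 112-fold), Cdsn (95.7-fold), Sprr3 (79.5-fold) and Lor (33.2-fold). Without background correction 12 were at least 2-fold higher, and the folds were 52.1 for Krt4, 41.5 for Cdsn, 42.0 for Sprr3 and 23.4 for Lor. Of 15 measured mesenchymal markers, 10 were detected and 9 were at least 2-fold higher in the knockout (7 when lower bounds replace the measured differences of genes seen on 1 array). Their summed raw signal was 10384 on the knockout array and 3443 on the control array, led by Thy1 (at least 15.7-fold), Col1a1 (at least 8.82-fold), Lum (at least 7.14-fold) and Mmp2 (10.1-fold), while Col1a2 was not detected on either array. Without background correction 7 were at least 2-fold higher, and the folds were 7.42 for Thy1, 4.42 for Col1a1, 3.73 for Lum and 6.46 for Mmp2. Among epithelial markers, Perp differed by 1.78, Krt5 by -1.22, Cldn1 by 0.48 and Krt8 by -0.45. Without background correction 0 epithelial markers were at least 2-fold higher, so Perp was then under 2-fold, and 1 was at least 2-fold lower. Markers of other cells were few: of 7 measured immune markers, Ptprc was not detected, H2-Ab1 was detected in the control only and at least 2.29-fold lower (1.48-fold without background correction), and Cd14 differed by -0.74. Of 5 endothelial markers only Flt1 was detected, at least 1.82-fold higher (1.65-fold without background correction), and of 6 Schwann and melanocyte markers only Mbp, 4.12-fold higher. Of 4 dental epithelial markers, Ambn was at least 8.02-fold higher (3.35-fold without background correction) and Sox2 is given above. In bulk RNA, more cells of a type and more RNA per cell cannot be told apart, and the part of these shifts in the values of Satb1, Smarcc1 and the other members was not tested.

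The arrays also differed in sex-linked transcripts, some of which are chromatin regulators. Xist, which coats the inactive X chromosome, was at least 37.9-fold higher in the knockout. The Y-linked demethylase Kdm5d read 7.15 in the knockout and 8.62 in the control, Uty was at least 1.63-fold lower, Eif2s3y was 3.03-fold lower and Usp9y at least 3.74-fold lower. Without background correction the folds were 18.5 for Xist, 1.84 for Kdm5d, 1.40 for Uty and 3.15 for Usp9y. The X-linked counterpart of Uty, Kdm6a, read 10.02 against 9.98, and Kdm5c was not detected. All detected members are autosomal, and the part of sex in their values was not tested.

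**Figure D4:**
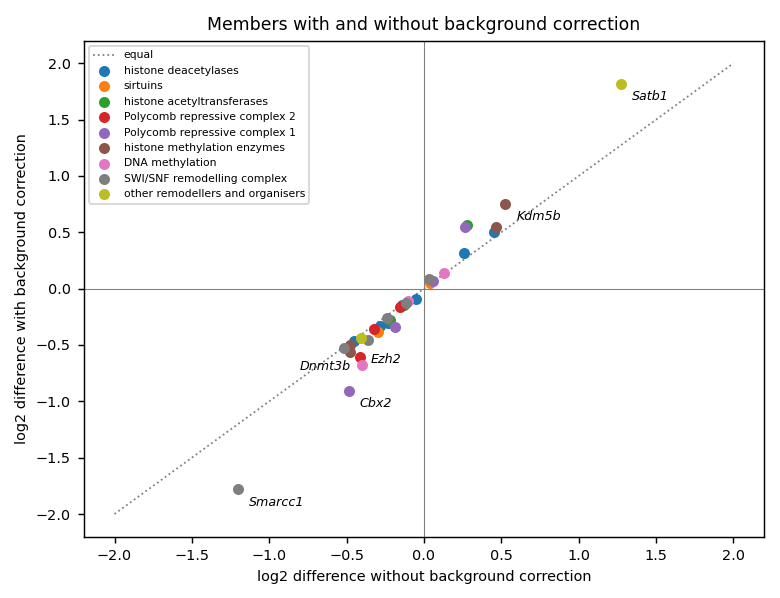
Log2 difference, Med1 knockout minus control, of each detected member with background correction (vertical axis) against the same without it (horizontal axis), coloured by role; the dotted line marks equal values. Satb1 (1.82 with and 1.27 without), Smarcc1 (-1.78 and -1.20) and the dim Cbx2 (-0.91 and -0.49) lie farthest from the line; signs are the same on both axes by construction, because quantile normalization keeps the order of the probes.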

How the data were processed

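RNA of 1 Med1 knockout and 1 control culture sample was measured on Illumina bead arrays of 1 chip, at different positions, with biotin label read by Cy3-streptavidin, per the labels. For each probe, the deposited table gives a linear, non-normalized bead intensity and the authors' detection p-value, per the file headers. Per the submitters' processing notes, GenomeStudio 2011.1 was used. A second deposited table of intensity values has nearly the same distribution in both columns, and the sources used here do not say how it was made.

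Intensities were background corrected with normexp, with parameters inferred from the detection p-values, given an offset of 16, quantile normalized and taken to log2 (neqc, limma 3.58.1, R 4.3.3). Of 25697 probes, 23978 had 1 gene symbol, 1719 were unnamed here and 0 had several. Gene IDs of 23962 were found in the RefSeq gene table, which gave current symbols. A gene is represented by its probe with the highest mean. For a gene detected on 1 array, the lower bound sets the dim side at its own value or the smallest reading among detected probes, whichever is higher (6.37 in the knockout and 6.30 in the control). With 1 array per genotype there is no test, and 2-fold is a rule of size. The number of arrays limits the precision. The procedure was tested on simulated data. Promoters for 42 of the 47 members were in the RefSeq table.

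Members, roles and lists were chosen with earlier results of these data known. The text names every member, and gives levels for those past 2-fold, with probes over 1 apart, or among the 2 largest differences of a role. It names up to 4 genes of each further list with the largest differences. Kdm6a, Kdm5c, Cdkn2a, Krt14, Ptprc, Col1a2 and any gene outside these rules were picked with their values already known. Alternatives covered background correction, offset, scaling, the deposited values, detection, probe choice, lower bounds, fold and the mean.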

Additional observations from a re-analysis of the deposited data

How the results depend on the processing

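With 1 array per genotype no replicate could be left out, and no paired analysis was possible because each genotype has a single array. The count of members at least 2-fold higher was 1 and at least 2-fold lower 1 under all alternatives run except these: without normalization between arrays 2 were lower, Cbx2 joining Smarcc1, and at 1.5-fold 2 were higher and 4 lower. The median difference of the members, -0.21, ranged from -0.27 without normalization between arrays to -0.13 as a mean. No scaling moved the median of all genes by over 0.1: it was -0.11 without normalization between arrays and -0.06 as reported. For the named members, alternatives of detection and of lower bounds return the reported value, since all are detected on both arrays, and background settings cannot change a sign. Sirt2 was at -0.04 without normalization between arrays. Without background correction Satb1 was at 1.27, Smarcc1 at -1.20 and Cbx2 at -0.49, and in the deposited values at 1.26, -1.19 and -0.48. As the mean of detected probes Smarcc1 was at -1.39 and Smarca2 at -0.89. Dim probes limit what these arrays resolve: background correction widens their differences.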
